A study of Arabidopsis thaliana with 24 samples.

Results

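Transposable element genes on the chromosome arms of Arabidopsis thaliana were examined as sources of small RNA in inflorescences. They are the loci that the authors' deposited table types as transposable element genes and whose identifiers lie outside the ranges AT1G32000 to AT1G47999, AT2G03000 to AT2G16999, AT3G28000 to AT3G45999, AT4G03000 to AT4G10999 and AT5G26000 to AT5G40999, which surround the centromeres. The rule used only annotation and found 186 of the 14888 loci in the table; the remaining 1802 of its 1988 transposable element genes lie inside those ranges. The arm loci were spread over all chromosomes, with 51 on chromosome 1, 30 on chromosome 2, 40 on chromosome 3, 32 on chromosome 4 and 33 on chromosome 5. RefSeq types all 186 as pseudogenes. Their median gap to the nearest protein-coding gene was 1132 bases, against 10627 for the loci inside the ranges, so by position they sit among genes.

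Small RNA was sequenced from inflorescences of 8 labelled genotypes in the Col-0 background, with 3 libraries each, and the table holds 13 mutant lines compared by the authors with DESeq2. All carry mutations in genes of RNA tailing, decay or dicing: URT1 and HESO1 add nucleotides to RNA 3′ ends, RRP4 belongs to the core of the RNA exosome, SKI2 is a helicase of the cytoplasmic exosome pathway, and DCL2 is a Dicer that makes siRNAs from mRNAs and transgenes. The single mutants were ski2-5, ski2.2, rrp4-2, urt1-1, urt1.2, GKheso1 and heso1.3, the double mutant was heso1-4/urt1-1, and the mutants of 3 genes were rrp4-2/urt1-1/heso1-4, rrp4urt1dcl2.B9, rrp4urt1dcl2het, ski2urt1dcl2.107 and ski2urt1dcl2.123. The labels name a heso1-4 group and an rrp4-2/urt1-1/dcl2CRISPR group. The table does not say whether GKheso1 is the former, nor which of the lines .B9 and het is the latter, nor what het stands for. No label names the lines ski2urt1dcl2.107, ski2urt1dcl2.123, ski2.2, urt1.2 and heso1.3, and nothing says how many plants or clones a line stands for. The table names no reference, and Col-0, the only labelled wild type, is taken as the reference of every line.

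In plants, RNA-directed DNA methylation is among the pathways that keep transposable elements silent. RNA polymerase IV and RDR2 make double-stranded RNA at the element, DCL3 cuts it into siRNAs, and Argonaute proteins such as AGO4 guide DNA methylation to matching sequence. Elements that are transcribed can also be routed to RDR6, whose products DCL2 and DCL4 cut. Near the centromeres elements lie in deep heterochromatin, while those on the arms often lie close to genes.

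The sequences of the arm loci that the results turn on are given here in lower case, 5′ to 3′ on the annotated strand, from the RefSeq assembly TAIR10.1. The first pair comprises the locus listed as higher in the most lines, AT4G13470 (chr4:7829183-7829482, minus strand, its first 300 bases), and the locus with the deepest repeated fall, AT3G22955 (chr3:8138497-8138796, plus strand, its first 300 bases).
AT4G13470: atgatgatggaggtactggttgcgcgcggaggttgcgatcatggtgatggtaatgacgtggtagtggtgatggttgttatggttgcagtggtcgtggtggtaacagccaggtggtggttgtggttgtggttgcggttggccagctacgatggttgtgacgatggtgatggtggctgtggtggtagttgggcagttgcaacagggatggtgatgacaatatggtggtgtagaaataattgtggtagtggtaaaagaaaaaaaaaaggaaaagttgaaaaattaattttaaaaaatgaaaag
AT3G22955: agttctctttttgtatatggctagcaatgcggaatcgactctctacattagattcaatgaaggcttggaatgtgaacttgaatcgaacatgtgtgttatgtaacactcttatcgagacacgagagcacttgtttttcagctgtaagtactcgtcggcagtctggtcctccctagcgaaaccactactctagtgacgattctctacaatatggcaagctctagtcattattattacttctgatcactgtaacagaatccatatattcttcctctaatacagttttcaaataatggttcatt

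The next pair are whole short loci that fell by more than 1 on the log2 scale in rrp4-2/urt1-1/heso1-4, AT1G54905 (chr1:20470025-20470247, plus strand) and AT2G36040 (chr2:15130646-15130828, minus strand). The third sequence is the start of AT1G03420 (chr1:846664-846813, plus strand), which was higher in the 4 rrp4 lines and overlaps other genes. RefSeq names it Sadhu4-2, a member of the Sadhu non-coding retrotransposon family.
AT1G54905: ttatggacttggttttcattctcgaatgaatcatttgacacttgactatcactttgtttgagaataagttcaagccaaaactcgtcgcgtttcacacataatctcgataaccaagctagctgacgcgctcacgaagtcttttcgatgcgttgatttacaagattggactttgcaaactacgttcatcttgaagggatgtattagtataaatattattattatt
AT2G36040: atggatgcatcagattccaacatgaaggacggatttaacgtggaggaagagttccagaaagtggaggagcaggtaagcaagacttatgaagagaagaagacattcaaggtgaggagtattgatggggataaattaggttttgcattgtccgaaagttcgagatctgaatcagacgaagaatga
AT1G03420: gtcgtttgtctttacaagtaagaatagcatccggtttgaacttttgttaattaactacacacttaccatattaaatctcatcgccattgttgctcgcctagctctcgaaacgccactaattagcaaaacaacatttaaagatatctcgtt

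The last set shows how alike copies of one element can be: a window of 90 bases from each of the 7 copies of the group named here after AT1G11265, with capitals at the bases that differ from AT1G11265. The windows lie at chr1:3785145-3785234 (plus), chr1:7721972-7722061 (plus), chr1:18017542-18017631 (plus), chr1:21525481-21525570 (minus), chr3:22063754-22063843 (plus), chr3:22696052-22696141 (minus) and chr5:4208592-4208681 (minus), in the order printed. Each copy differed from AT1G11265 at 0 to 3 of the 90 bases, so most small RNA reads from here match several copies equally well.
AT1G11265: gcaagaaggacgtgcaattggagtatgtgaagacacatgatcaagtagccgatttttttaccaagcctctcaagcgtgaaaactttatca
AT1G21945: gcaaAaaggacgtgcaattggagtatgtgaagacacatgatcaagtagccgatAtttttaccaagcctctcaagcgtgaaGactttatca
AT1G48710: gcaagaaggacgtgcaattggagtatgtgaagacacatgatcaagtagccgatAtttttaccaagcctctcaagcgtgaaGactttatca
AT1G58140: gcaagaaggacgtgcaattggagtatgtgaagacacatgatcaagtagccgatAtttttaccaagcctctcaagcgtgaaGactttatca
AT3G59720: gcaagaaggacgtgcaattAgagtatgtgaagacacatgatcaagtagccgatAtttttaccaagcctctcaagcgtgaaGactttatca
AT3G61330: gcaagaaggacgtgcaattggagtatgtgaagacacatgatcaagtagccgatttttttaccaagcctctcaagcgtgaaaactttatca
AT5G13205: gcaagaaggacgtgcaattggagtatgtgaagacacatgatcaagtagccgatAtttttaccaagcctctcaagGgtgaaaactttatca

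All values are log2 fold changes of small RNA in a mutant line against the reference, and the value after ± is its standard error (SE), worked back from the p that was deposited. A locus is called higher or lower where it is listed with a DESeq2 adjusted p under 0.05. The table holds no values of single libraries, so depth, replicate values and the number of libraries showing a direction are unknown, and it lists from 50.93% to 82.8% of the loci past the threshold in a line. A locus that is not listed is therefore not shown to be unchanged. Every arm locus is listed at least once by construction, and every line is taken to share the reference. The lines' counts are therefore set side by side and not tested against each other. An inflorescence mixes many cell types, and fewer cells of a type and less small RNA per cell cannot be told apart. Read lengths were not used here, so siRNAs of one size are not separated from other small RNA.

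Of the 186 arm loci, 95 were listed in 1 line, 58 in 2 lines and 33 in 3 or more. Small RNA was only higher at 117, only lower at 66, and both higher and lower in different lines at 3, AT1G77095, AT1G78095 and AT3G05415. The rrp4 lines held most of the entries: 169 of the 186 were listed in rrp4-2 or in 1 of the 3 lines that combine rrp4 and urt1, and 12 in all of these. Locus length ran from 183 to 10188 bases with a median of 2078, against a median of 2263 near the centromeres.

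**Figure D1:**
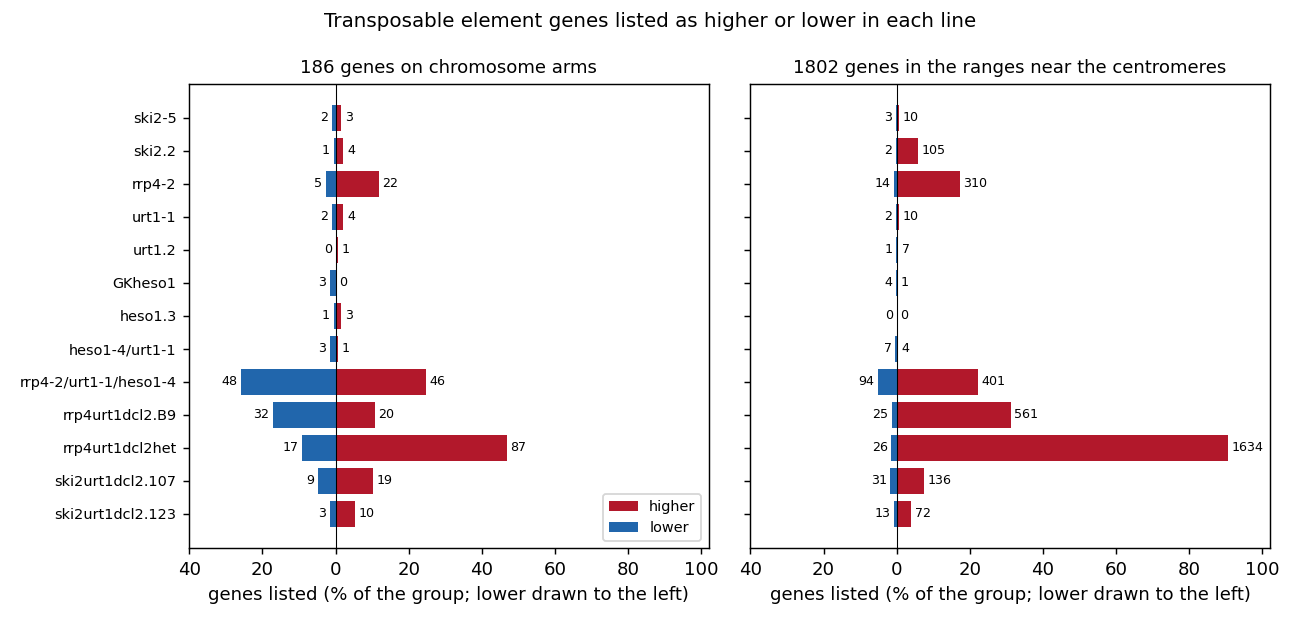
Share of transposable element genes listed as higher (red, to the right) or lower (blue, to the left) in each of 13 mutant lines, as a percent of the group, with counts at the bar ends; the left panel holds the 186 arm loci and the right panel the 1802 loci near the centromeres. In rrp4urt1dcl2het 87 arm loci were higher and 17 lower, against 1634 and 26 near the centromeres, and in rrp4-2/urt1-1/heso1-4 the arm loci split into 46 and 48.

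In rrp4-2, 22 arm loci were higher and 5 lower, that is 11.8% and 2.69% of the members, while 14.7% and 4.33% of all loci in the table were higher and lower. Loci near the centromeres were listed almost only as higher, 310 against 14. Both shares of the arm loci lie under those of all loci, which lean the same way.

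In rrp4-2/urt1-1/heso1-4, 46 arm loci were higher and 48 lower, or 24.7% and 25.8%, against 28.2% and 22.4% of all loci, and against 401 higher and 94 lower near the centromeres. At an adjusted p under 0.01 these arm counts were 33 higher and 24 lower. The line rrp4urt1dcl2.B9 listed more arm loci as lower, 32, than as higher, 20, while 5.18% of all loci were lower and 21.9% higher. That is 17.2% of the arm loci lower and 10.8% higher, so the share lower is above that of all loci and the share higher below it; near the centromeres 25 were lower and 561 higher. At an adjusted p under 0.01 the arm counts were 10 higher and 10 lower, so more lower than higher was not kept. The line rrp4urt1dcl2het had 87 arm loci higher and 17 lower, or 46.8% and 9.14%, against 41.2% and 19.4% of all loci. There 1634 of 1802 loci near the centromeres were higher and 26 lower. The lean of these counts was not tested, because the members were chosen with results of these data known. In rrp4urt1dcl2.B9, 12 of the 32 lower and 6 of the 20 higher arm loci had a near-identical copy, as defined below. In rrp4-2/urt1-1/heso1-4 it was 20 of the 46 higher and 15 of the 48 lower. In rrp4urt1dcl2het it was 50 of the 87 higher and 6 of the 17 lower. Such copies may hold the same reads but count as separate loci in these shares. Copies were not counted for all loci.

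The ski2 urt1 dcl2 lines listed 19 higher and 9 lower arm loci in ski2urt1dcl2.107 and 10 higher and 3 lower in ski2urt1dcl2.123. That is 10.2% and 4.84% of the arm loci in the first line, and 5.38% and 1.61% in the second. The matching shares of all loci were 6.33% and 5.43%, and 3.67% and 3.11%. In each line 7 of the higher arm loci are the copies of the AT1G11265 group, with 99.08% to 99.88% identity. As described below, these 7 may count as 1 observation. The single mutants without rrp4, and the double mutant, listed few. There were 3 higher and 2 lower in ski2-5 (1.18% and 1.22% of all loci), 4 and 1 in ski2.2 (2.16% and 0.672%), and 4 and 2 in urt1-1 (1.46% and 0.504%). There was 1 higher in urt1.2 (0.692% of all loci higher, 0.477% lower), and heso1.3 had 3 higher and 1 lower (0.43% and 0.49%). GKheso1 had 3 lower and none higher (0.658% of all loci higher, 0.813% lower), and heso1-4/urt1-1 had 1 higher and 3 lower (1.59% and 1.13%). Each of these counts rests on 1 to 4 loci.

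A few arm loci were listed in many lines. The locus AT4G13470 (chr4:7827973-7829482, 1510 bases), printed above, was higher in 10 of 13 lines. In the authors' deposited table the values were 3.24 ± 0.38 in ski2-5, 3.28 ± 0.38 in ski2.2, 3.50 ± 0.37 in rrp4-2, 2.68 ± 0.38 in urt1-1, 3.03 ± 0.39 in urt1.2, 2.99 ± 0.38 in heso1.3, 2.00 ± 0.40 in heso1-4/urt1-1, 3.50 ± 0.38 in rrp4urt1dcl2.B9, 3.55 ± 0.37 in rrp4urt1dcl2het and 2.47 ± 0.39 in rrp4-2/urt1-1/heso1-4. It was not listed in GKheso1 or in either ski2 urt1 dcl2 line, and where it is listed it ran from 2.00 to 3.55. The nearest coding gene, 969 bases away, is AT4G13460 (SUVH9), whose product helps recruit RNA polymerase V to methylated DNA; it was listed in no line. All these lines are taken to share the same reference libraries, so the 10 values are not treated as independent. The part of the reference in them was not tested.

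AT1G52840 (chr1:19674540-19676111, 1572 bases) was higher in 9 lines, from 0.93 ± 0.26 in urt1-1 to 1.54 ± 0.26 in rrp4urt1dcl2het in the authors' deposited table. Unlike AT4G13470 it was listed in both ski2 urt1 dcl2 lines, at 1.11 ± 0.29 in ski2urt1dcl2.107 and 0.95 ± 0.26 in ski2urt1dcl2.123 in the authors' deposited table. AT4G11200 (chr4:6827758-6829496) was higher in 5 lines, all of them mutants of 3 genes, and the authors' deposited table gives values from 1.24 ± 0.38 in ski2urt1dcl2.123 to 1.81 ± 0.37 in rrp4-2/urt1-1/heso1-4.

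AT3G22955 (chr3:8138497-8138965, 469 bases, 220 bases from the coding gene AT3G22960) had the largest falls that recurred between lines. It was lower in 6 lines of the authors' deposited table, at -8.45 ± 1.13 in ski2-5, -8.65 ± 1.09 in urt1-1, -7.52 ± 1.01 in heso1.3, -7.44 ± 1.01 in heso1-4/urt1-1, -8.35 ± 1.26 in ski2urt1dcl2.107 and -7.78 ± 1.04 in ski2urt1dcl2.123. It was not listed in the other lines, among them ski2.2, urt1.2 and GKheso1, so alleles of the same gene did not give the same listing. None of the 6 lines is an rrp4 line. Counts per library were not used here, so these fitted values are not taken as a measure of how much small RNA was left. The difference between heso1-4/urt1-1 and urt1-1, 1.21 ± 1.49, was not past the threshold (two-sided z test, adjusted p = 0.998).

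AT5G20750 (chr5:7027773-7031290) was lower in 6 lines: by the authors' deposited table, -0.70 ± 0.17 in GKheso1, -0.61 ± 0.16 in heso1-4/urt1-1, -0.52 ± 0.15 in rrp4-2, -0.91 ± 0.16 in rrp4urt1dcl2.B9, -0.59 ± 0.16 in rrp4urt1dcl2het and -0.94 ± 0.17 in rrp4-2/urt1-1/heso1-4. Just beyond it lies AT5G20770 (chr5:7034188-7034883), which moved the other way: 0.93 ± 0.31 in rrp4urt1dcl2.B9, 2.53 ± 0.30 in rrp4-2/urt1-1/heso1-4 and 2.84 ± 0.29 in rrp4urt1dcl2het in the authors' deposited table. Neighbouring elements on an arm thus gave opposite values in the same lines.

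AT1G77095 (chr1:28964016-28965367) had the highest mean signal of the arm loci, a mean normalised count of 5770 per kilobase in the authors' deposited table. It was higher in 5 lines, from 0.505 ± 0.15 in ski2.2 to 0.75 ± 0.15 in rrp4urt1dcl2het in the authors' deposited table. In ski2urt1dcl2.107 and ski2urt1dcl2.123 it was lower, at -0.91 ± 0.17 and -0.69 ± 0.15 in the authors' deposited table. Its neighbour AT1G77100, a coding gene 405 bases away, was at -2.703 ± 0.27 and -2.05 ± 0.23 in the same lines of the authors' deposited table and was listed in no other line.

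**Figure D2:**
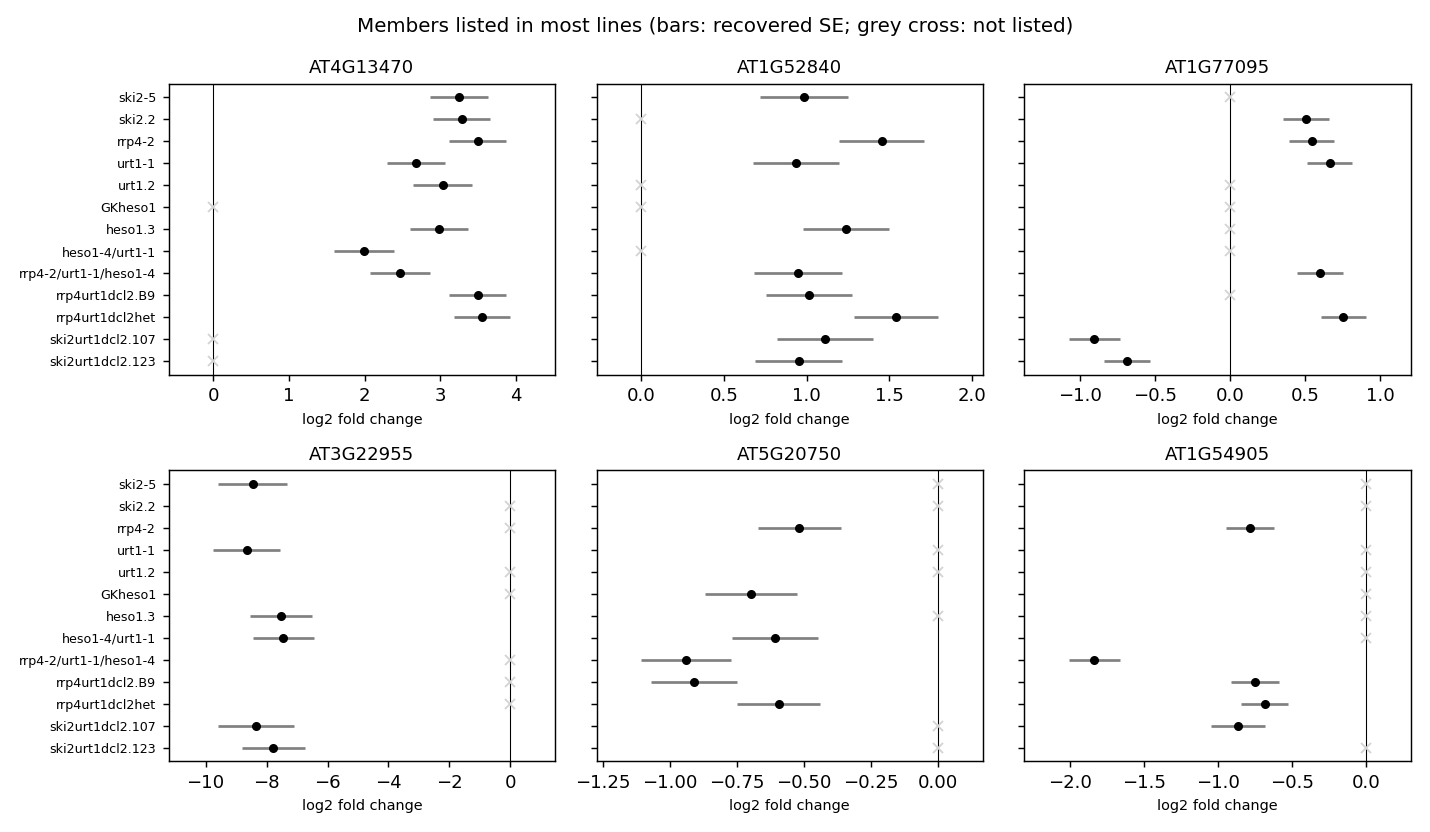
Log2 fold change of small RNA against the reference (horizontal axes) in 13 lines for 6 of the arm loci listed in most lines; points are the deposited values, bars the recovered SE, and grey crosses at 0 mark lines that do not list the locus. AT4G13470 lies between 2.00 and 3.55 wherever it is listed, and AT1G77095 is above 0 in 5 lines and below 0 in both ski2 urt1 dcl2 lines.

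The 4 loci with the next highest mean signal over the whole locus, at 310.4 to 664.2 normalised counts per kilobase in the authors' deposited table, fell mildly where they were listed. AT2G25550 and AT2G31520 are copies of each other with 99.85% identity. In the authors' deposited table AT2G25550 was at -0.45 ± 0.12 in rrp4-2/urt1-1/heso1-4 and -0.39 ± 0.12 in rrp4urt1dcl2.B9, and AT2G31520 at -0.44 ± 0.12 and -0.39 ± 0.12. AT4G17820 and AT4G20180 were listed only in rrp4-2/urt1-1/heso1-4, at -0.36 ± 0.12 and -0.37 ± 0.12 in the authors' deposited table.

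In each rrp4 line the listed arm loci higher by more than 1 had a lower median signal than those higher by less, although single loci such as AT5G49080, described below, rose strongly at a mean signal of 447.8. In rrp4-2/urt1-1/heso1-4 the 21 arm loci higher by more than 1 had a median mean signal of 20.8 normalised counts, and the 25 higher by less had 105.5. The 9 loci higher by more than 1 in rrp4-2 had 22.8, the 12 of rrp4urt1dcl2.B9 had 20.7 and the 37 of rrp4urt1dcl2het had 62.6, while those higher by less had 111.3, 632.2 and 204.7. A low-signal locus has to change more to pass the test, so these medians describe what was listed. An example is AT4G22065 (chr4:11689187-11689600), the arm locus with the lowest mean signal, 5.19. The authors' deposited table has it at 2.79 ± 0.81 in rrp4-2, 3.25 ± 0.80 in rrp4urt1dcl2.B9, 3.34 ± 0.81 in rrp4-2/urt1-1/heso1-4 and 3.17 ± 0.80 in rrp4urt1dcl2het. Its values in these 4 lines differ by less than 1 SE.

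Members of the Sadhu family, short retrotransposon relics that encode no protein, include some of the larger rises in the rrp4 lines. RefSeq names 7 arm loci as Sadhu elements. Of these, 3 were higher in rrp4-2, 4 in rrp4urt1dcl2.B9, 4 in rrp4-2/urt1-1/heso1-4 and 3 in rrp4urt1dcl2het, with 1 lower in the last; the shares of all loci higher there were 14.7%, 21.9%, 28.2% and 41.2%. Sadhu4-2 (AT1G03420) was at 2.81 ± 0.26 in rrp4-2, 2.63 ± 0.26 in rrp4urt1dcl2.B9, 2.98 ± 0.26 in rrp4-2/urt1-1/heso1-4 and 2.08 ± 0.26 in rrp4urt1dcl2het in the authors' deposited table. SADHU10-1 (AT3G58865) was at 1.82 ± 0.36, 1.87 ± 0.37, 2.81 ± 0.36 and 1.70 ± 0.37 in these lines, in the same order, in the authors' deposited table. SADHU6-1 (AT3G02515) was listed in none of the rrp4 lines and was at 0.61 ± 0.18 in ski2.2, 0.64 ± 0.20 in ski2urt1dcl2.107 and 0.61 ± 0.18 in ski2urt1dcl2.123 in the authors' deposited table. The single fall was SADHU5-1 (AT4G01525), at -1.11 ± 0.24 in rrp4urt1dcl2het in the authors' deposited table.

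Several of these loci overlap a gene, and their small RNA cannot be told apart from the gene's. In all, 20 arm loci overlap another gene and 9 a coding gene, and 12 had a partner listed in a shared line. Sadhu4-2 lies antisense to the coding gene AT1G03410 (2A6), which was at 2.503, 2.33, 2.67 and 1.83 in the 4 rrp4 lines, in the order above, in the authors' deposited table. SADHU10-1 lies antisense to the coding gene AT3G58875, at 1.69, 1.297, 2.61 and 1.6 in the authors' deposited table. AT1G50810 (chr1:18828868-18832972) lies antisense to AT1G50820, and was at 3.65 ± 0.26, 1.75 ± 0.27, 2.66 ± 0.27 and 2.15 ± 0.27 in the authors' deposited table. Its partner was at 2.64, 1.03, 1.74 and 1.28 there in the authors' deposited table, so partner and element ranked the lines alike. SADHU7-1 (AT3G13438) lies antisense to the coding gene AT3G13440. In the authors' deposited table the element was at 1.15 in rrp4urt1dcl2.B9, 1.41 in rrp4-2/urt1-1/heso1-4 and 1.05 in rrp4urt1dcl2het. The gene was at 0.92, 1.175 and 0.89 in these lines in the authors' deposited table. SADHU1-2 (AT1G30835), also higher in rrp4 lines, overlaps no gene.

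EXT11 (AT5G49080, chr5:19890784-19892809), which RefSeq names as extensin 11, a class of cell wall glycoprotein, and which the table types as a transposable element gene, separated the rrp4 lines most. In the authors' deposited table it was at 0.96 ± 0.25 in rrp4-2, 1.49 ± 0.25 in rrp4urt1dcl2.B9, 3.36 ± 0.25 in rrp4urt1dcl2het and 3.48 ± 0.25 in rrp4-2/urt1-1/heso1-4. The first 2 and the last 2 of these values lie close together, with a gap between. Direct repeats of 800 bases with 91.4% identity lie in the locus or within 1500 bases of it.

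Short loci were the ones that fell most in rrp4-2/urt1-1/heso1-4. All 8 arm loci lower by more than 1 there were 183 to 810 bases long, with a median of 451.5, and none had a near-identical copy, that is at least 95% identity over at least 80% of its length. The 40 that were lower by 1 or less had a median length of 3433 bases. In the authors' deposited table AT1G54905 was at -1.83 ± 0.17, AT2G36040 at -1.79 ± 0.61, AT3G25630 at -1.72 ± 0.17, AT3G26605 at -1.62 ± 0.18 and AT5G25305 at -1.44 ± 0.15. The other 3, AT3G52705, AT2G42050 and AT2G02830, lay between -1.33 and -1.08 in the authors' deposited table. In ski2urt1dcl2.107, 7 of 9 lower loci were at most 1000 bases long, and the 2 longer ones were at -0.91 and -0.71. In ski2urt1dcl2.123 only 1 of 3 lower loci was that short, AT3G22955. In ski2urt1dcl2.107 AT2G36040 was at -10.37 ± 1.59 and AT3G26605 at -1.25 ± 0.20 in the authors' deposited table. There AT3G25630 was at -0.95 ± 0.19, AT1G54905 at -0.86 ± 0.18 and AT5G25305 at -0.64 ± 0.16 in the authors' deposited table. As for AT3G22955, the value of -10.37 is not taken as a measure of how much small RNA was left. A short locus with a given signal has more small RNA per base, and no test of length was made.

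**Figure D3:**
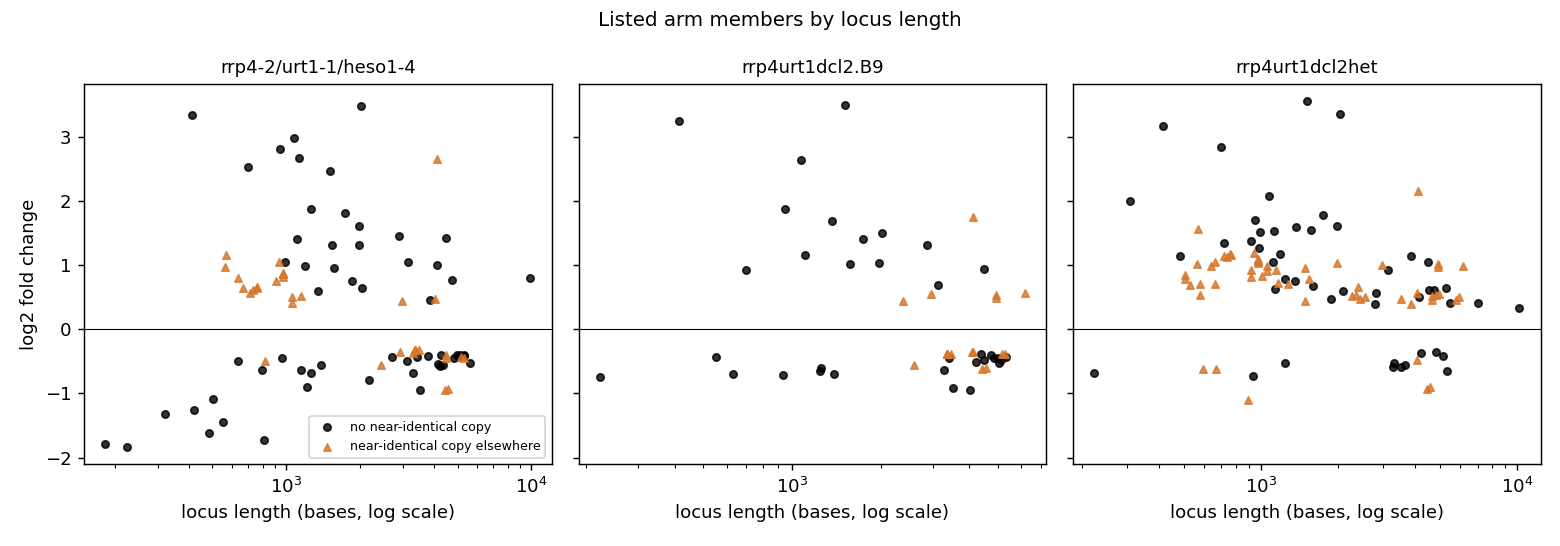
Log2 fold change (vertical axis) against locus length in bases (horizontal axis, log scale) for the arm loci listed in 3 rrp4 urt1 lines; black circles have no near-identical copy elsewhere in the genome and orange triangles have at least 1. In the left panel every locus below -1 is a black circle of 183 to 810 bases, and in rrp4urt1dcl2het 50 of the 87 loci above 0 are triangles.

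Long loci made up most of the milder falls. In rrp4urt1dcl2.B9 none of the 32 lower arm loci was beyond -1, their median length was 3769 bases and their median log2 fold change was -0.46. In rrp4urt1dcl2het 17 were lower, with a median length of 3518 bases. The pair AT1G58889 and AT1G59265, copies on chromosome 1 with 99.98% identity, was lower in all 4 rrp4 lines. In the authors' deposited table AT1G58889 was at -0.72 ± 0.14 in rrp4-2, -0.61 ± 0.14 in rrp4urt1dcl2.B9, -0.93 ± 0.15 in rrp4-2/urt1-1/heso1-4 and -0.905 ± 0.14 in rrp4urt1dcl2het. Its copy differed from these by less than 1 SE in each line, and reads from near-identical copies cannot be told apart.

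Copies of an element were often, but not always, listed together. Of the 186 loci, 77 had a near-identical copy in the genome. In 17 groups, 61 loci were linked pair by pair, at 80% identity or more over at least 80% of 1 locus of the pair. The 7 copies of the AT1G11265 group (chromosomes 1, 3 and 5, 99.08% to 99.88% identity), whose windows are printed above, were all higher in ski2urt1dcl2.107, from 1.08 to 1.19, and in ski2urt1dcl2.123, from 0.53 to 0.60, in the authors' deposited table. They were listed in no other line. AT3G61330, a member of it, was at 1.19 ± 0.16 and 0.596 ± 0.15 in these lines in the authors' deposited table. How the authors assigned reads that match several copies is not given in the sources used here, so the 7 values may hold the same reads and count as 1 observation.

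The AT1G17900 group of 7, on chromosomes 1, 2, 3 and 5, was higher in rrp4-2/urt1-1/heso1-4, from 0.41 to 0.65, and in rrp4urt1dcl2het, from 0.903 to 1.17, in the authors' deposited table. It was listed neither in rrp4-2 nor in rrp4urt1dcl2.B9. The AT1G08735 group of 5 was lower, at -0.32 in rrp4-2/urt1-1/heso1-4 and from -0.39 to -0.38 in rrp4urt1dcl2.B9 in the authors' deposited table. Of these 5, 4 have exactly the same mean signal, 683.8, and the same log2 fold change in both lines in the authors' deposited table.

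Other groups were listed in part. The AT2G01024 group of 6 had 6 copies listed in rrp4urt1dcl2het, 4 in rrp4urt1dcl2.B9 and 1 in rrp4-2/urt1-1/heso1-4, all higher, and of the 2 copies of the AT5G18633 group 1 was listed in rrp4urt1dcl2het, as lower.

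On chromosome 4 a tandem array of 10 loci from AT4G13251 to AT4G13264 (chr4:7688597-7704812) alternates copies of a pair of sequences. All 10 were higher in rrp4urt1dcl2het, from 0.695 to 1.19, and 5 of them, the AT4G13251 group, were higher in rrp4-2/urt1-1/heso1-4, from 0.82 to 1.05, in the authors' deposited table. The other 5, the AT4G13252 group, were listed only in rrp4urt1dcl2het, so one sequence of the pair was listed in a line where its neighbours were not. At the left end of chromosome 2, 7 loci lie within chr2:10478-64872. All 7 were higher in rrp4urt1dcl2het, from 0.33 to 1.03 in the authors' deposited table, where 41.2% of all loci were higher. Higher too were 5 in rrp4urt1dcl2.B9, from 0.43 to 0.56, 1 in rrp4-2/urt1-1/heso1-4, at 0.44, and 1 in ski2urt1dcl2.107, at 0.49, in the authors' deposited table. Several of the 7 belong to the AT2G01024 group, and AT2G01022 has 14 near-identical copies elsewhere. Copies in the array and at this end may hold the same reads, so neither set counts as separate observations.

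**Figure D4:**
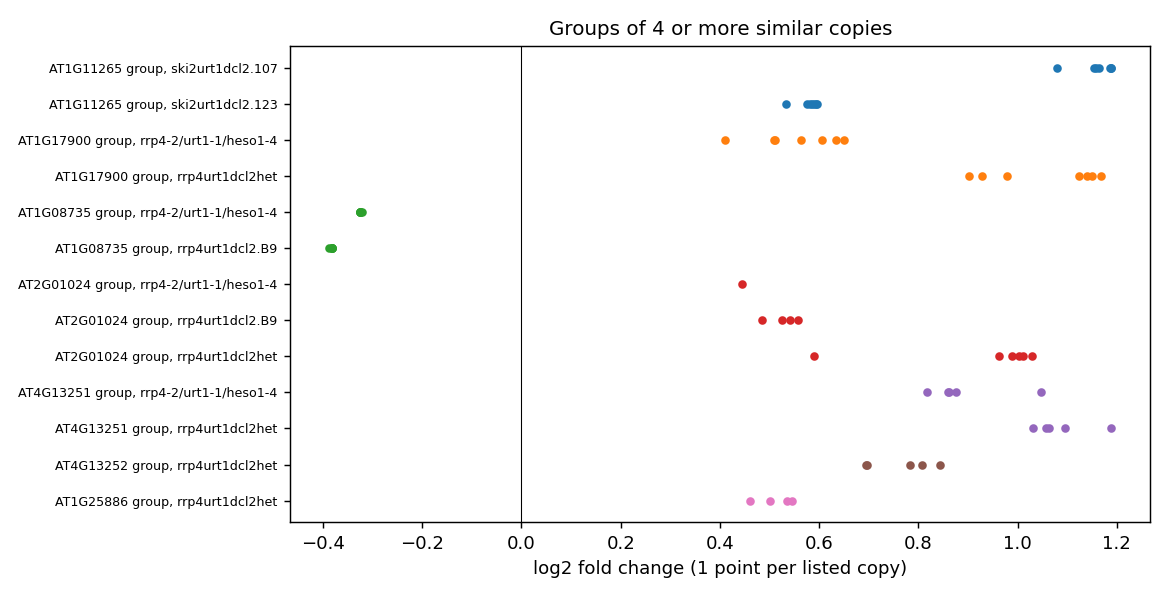
Log2 fold change (horizontal axis) of each listed copy in groups of 4 or more similar arm loci, with 1 row per group and line and 1 colour per group. The AT1G11265 group is listed only in the ski2 urt1 dcl2 lines, the AT1G08735 group lies below 0, and all others lie above 0 in the rrp4 urt1 lines.

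Differences between lines were tested for 6 pairs with a two-sided z test of the deposited log2 fold changes; p-values were adjusted by Benjamini and Hochberg's method over every locus that both lines list. Between rrp4-2/urt1-1/heso1-4 and rrp4-2, 4 of 17 shared arm loci differed, against 18.9% of 1457 shared loci. EXT11 was higher in the mutant of 3 genes by 2.52 ± 0.35 (adjusted p = 2.5e-11). Lower there were AT1G54905 with a difference of -1.05 ± 0.24 (adjusted p = 8.3e-05), AT1G78095 with -0.94 ± 0.19 (adjusted p = 4.8e-06) and AT1G50810 with -0.99 ± 0.37 (adjusted p = 0.043). AT1G78095 changed sign in the authors' deposited table, from 0.39 ± 0.13 in rrp4-2 to -0.56 ± 0.14 in rrp4-2/urt1-1/heso1-4. It was at 0.46 ± 0.13 in rrp4urt1dcl2het in the authors' deposited table.

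Between rrp4urt1dcl2.B9 and rrp4-2, 1 of 15 shared arm loci differed, against 3.1% of 1837: AT1G50810, lower in rrp4urt1dcl2.B9 with a difference of -1.89 ± 0.38 (adjusted p = 6.4e-05). Between rrp4urt1dcl2.B9 and rrp4-2/urt1-1/heso1-4, which share rrp4 and urt1 mutations and differ in dcl2 and heso1, 4 of 35 differed, against 9.64% of 2563. EXT11 was lower in rrp4urt1dcl2.B9 with a difference of -1.99 ± 0.35 (adjusted p = 6.3e-07) and AT5G20770 with -1.60 ± 0.43 (adjusted p = 0.0033). The short loci AT5G25305 and AT1G54905 fell less there, with differences of 1.01 ± 0.21 (adjusted p = 3.2e-05) and 1.09 ± 0.24 (adjusted p = 7.8e-05).

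The lines rrp4urt1dcl2het and rrp4urt1dcl2.B9 differed at 2 of 28 shared arm loci, against 6.54% of 2966. Both were higher in rrp4urt1dcl2het, EXT11 by 1.86 ± 0.35 (adjusted p = 5.1e-06) and AT5G20770 by 1.91 ± 0.43 (adjusted p = 0.00027). AT2G01034 of the chromosome 2 end differed by 0.48 ± 0.22, which was not past the threshold (adjusted p = 0.27). These tests set the correlation between lines to 0, although lines are taken to share reference libraries. With a correlation of 0.5, AT2G01034 passed (adjusted p = 0.021), and the counts became 6 of 28 here and 7 of 17 between rrp4-2/urt1-1/heso1-4 and rrp4-2. Of the 2 arm loci shared by rrp4-2 and ski2-5 and the 2 shared by heso1-4/urt1-1 and urt1-1, none differed, while 23.4% of 128 and 3.15% of 127 shared loci did.

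**Figure D5:**
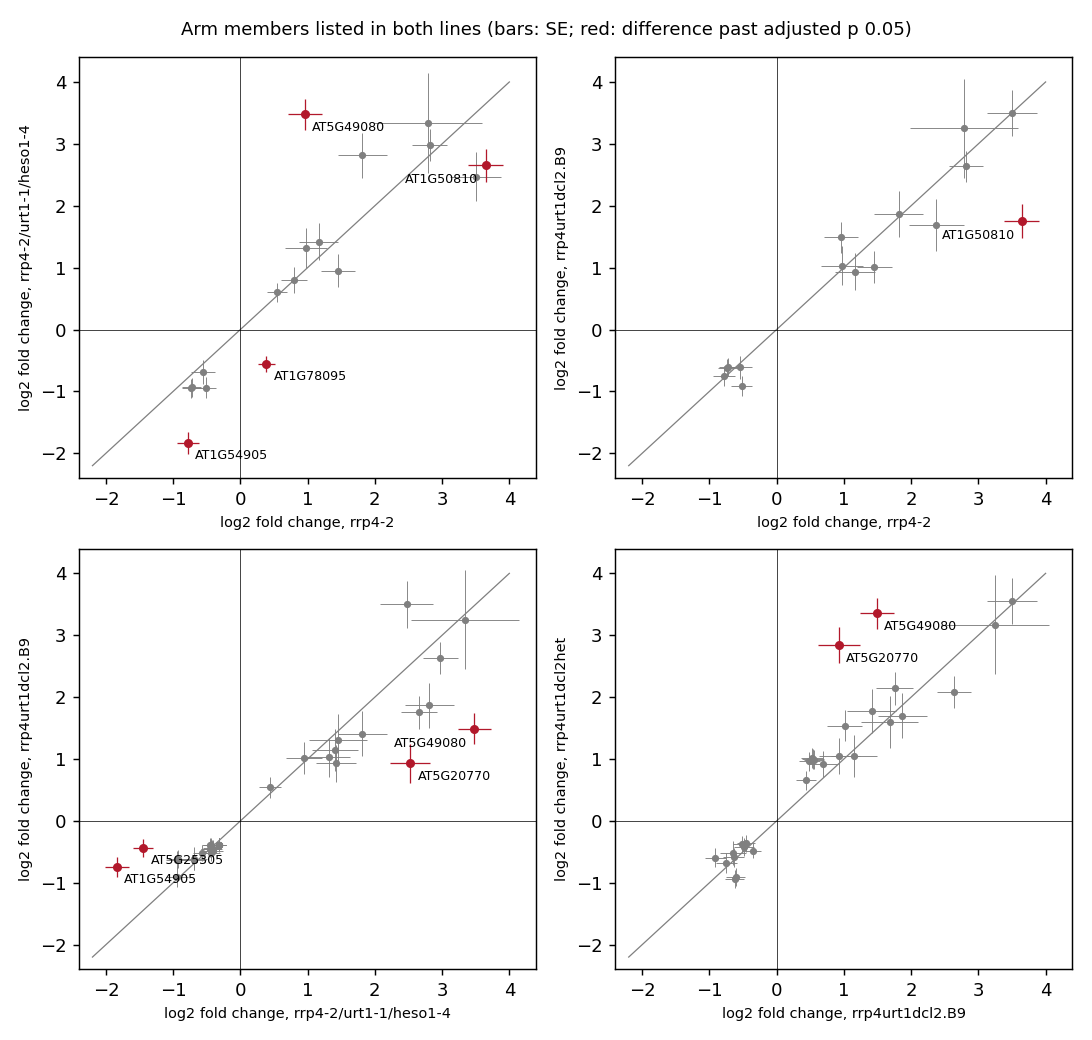
Log2 fold changes of arm loci listed in both lines of a pair, with SE bars in both directions and the line of equal values; red points passed an adjusted p of 0.05 in a z test of the difference. EXT11 (AT5G49080) lies 2.52 above equality in the upper left panel and AT1G50810 differs by -1.89 in the upper right one.

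Small RNA over genes of the silencing machinery itself was also examined. Of 27 genes of RNA-directed DNA methylation and transposon silencing, none was listed in 9 of the 13 lines, among them rrp4-2 and rrp4urt1dcl2.B9. Those 9 lines listed from 0.92% to 27.1% of all loci. In rrp4urt1dcl2het 4 of the 27 were lower, while 19.4% of all loci were. All loci are those listed in at least 1 line, but the 27 are a fixed list that includes genes listed in none. The shares therefore have unlike bases and are not compared. The 4 were DRD1, a chromatin remodeller, at -0.82 ± 0.27, and SPT5L, a partner of RNA polymerase V, at -0.75 ± 0.22 in the authors' deposited table. The others were CMT2, a DNA methyltransferase, at -0.72 ± 0.23, and AGO4 at -0.61 ± 0.21 in the authors' deposited table. ROS1, a DNA demethylase, was the only gene of the list in 3 other lines, at -0.39 ± 0.14 in rrp4-2/urt1-1/heso1-4, -0.56 ± 0.14 in ski2.2 and -0.61 ± 0.16 in ski2urt1dcl2.107 in the authors' deposited table. Of 6 genes of the RDR6 pathway, AGO1 was higher in 5 lines, from 0.62 ± 0.19 in rrp4urt1dcl2.B9 to 1.995 ± 0.21 in ski2urt1dcl2.107, and DCL2 was at -0.77 ± 0.22 in rrp4urt1dcl2het, in the authors' deposited table. These values are small RNA over the genes, not mRNA.

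Loci near the edges of the identifier ranges gave values on both sides. Just outside the ranges, and counted here, AT2G02830 was lower in 2 lines (-1.08 and -0.61), AT4G11200 higher in 5, AT5G25615 in 1 (0.46) and AT2G17460 in 2 (0.51 and 0.98) in the authors' deposited table. Just inside and not counted, AT4G10990 was lower in 3 lines, from -1.39 to -0.69, and AT1G47950 in 1, at -0.36, while AT3G28110 and AT3G28160 were each higher in 1 line, at 0.69 and 0.76, in the authors' deposited table.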

How the data were processed

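Small RNA libraries from inflorescences were made and sequenced by the authors. Per the submitters' processing notes, cutadapt 2.4, STAR 2.6.0a, featureCounts of Subread 1.6.3, DESeq2 and the build TAIR10 were used; order and parameters are not given in the sources used here, nor is the handling of reads that match several loci. The deposited signal of a locus is the mean normalised count over libraries made by the authors. Each entry also has a log2 fold change, a p-value and an adjusted p-value, all deposited by the authors, per the file headers. Its short line names rrp4, heso1urt1 and that of the rrp4 urt1 heso1 line were read as the only labelled groups with these mutations. The table holds 28194 entries, 346 of them for arm loci.

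From these values, the standard error of an entry was taken as the size of its log2 fold change divided by the normal deviate that its p-value stands for. The number of loci tested per line (32432 to 78096) and the ranks were worked back from both p-values. Both recoveries and the z test were tested on simulated data. Pairs of lines were compared with a correlation of 0 between them, with Benjamini-Hochberg adjustment over all loci listed in both. Positions, sequences and copies came from RefSeq TAIR10.1 with blastn 2.17.0; all 186 identifiers matched. Groups were built from pairs with 80% identity over 80% of the length of at least 1 of the paired loci. Pairs that share a locus were joined, so not every 2 members of a group match each other. Direct repeats needed 100 bases, searched with 1500 bases of flank. Scripts used Python 3.11.15, pandas 2.3.3, numpy 2.4.6 and scipy 1.17.1. Named loci were, per line, the 3 highest and 3 lowest, the 8 listed in most lines, the 5 with the highest mean signal, and per pair the 3 with the smallest p. Overlap partners, groups of copies, Sadhu loci, range edges and the other loci lower by more than 1 were added after their values were seen. Members and lists were chosen with earlier results of these data known. Alternatives were an adjusted p under 0.01, a mean signal of at least 10, ranges widened by 2000 identifiers on each side and a correlation of 0.5. The series' design text calls the 3 libraries per group biological replicates. The lines ski2.2, urt1.2, heso1.3, ski2urt1dcl2.107 and ski2urt1dcl2.123 match no labelled group, so their numbers of libraries are unknown. The same holds for any of GKheso1, rrp4urt1dcl2.B9 and rrp4urt1dcl2het that is not a labelled group. How the spread between libraries entered the deposited p-values is not given in the sources used here.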

Additional observations from a re-analysis of the deposited data

Results flagged for a closer look

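AT1G78095 was picked out because its effect had opposite signs in a pair of lines under the same contrast, with a tested difference. Small RNA at this locus in the authors' deposited table was at 0.39 ± 0.13 (SE) in rrp4-2 and at -0.56 ± 0.14 in rrp4-2/urt1-1/heso1-4. The difference was -0.944 ± 0.186 on the log2 scale (two-sided z test, adjusted p = 4.8e-06). It has 1 near-identical copy elsewhere in the genome. Values of single libraries were not used here, so single libraries could not be examined.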

How the results depend on the processing

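No paired analysis was possible because the table holds no values of single libraries, and for the same reason no library could be left out. At an adjusted p under 0.01 the counts of arm loci became 1 higher and 1 lower in ski2-5, 1 higher and 0 lower in ski2.2, 3 lower in rrp4-2, 2 higher and 1 lower in urt1-1, 0 lower in GKheso1, 24 lower in rrp4-2/urt1-1/heso1-4, 10 higher and 10 lower in rrp4urt1dcl2.B9, 8 lower in rrp4urt1dcl2het and 11 higher in ski2urt1dcl2.107. With wider identifier ranges they became 1 lower in ski2-5, 0 lower in ski2.2, 13 higher in rrp4urt1dcl2.B9 and 5 lower in ski2urt1dcl2.107, where fewer loci are counted by construction. With a correlation of 0.5 between lines, 7 arm loci differed between rrp4-2/urt1-1/heso1-4 and rrp4-2 and 6 between rrp4urt1dcl2het and rrp4urt1dcl2.B9, where AT2G01034 then passed the threshold (adjusted p = 0.021). The other counts stayed within 1.5 times, among them all those with a mean signal of at least 10, and no named locus changed direction. Of the named values, 32 were no longer past the threshold at 0.01. Depth per library is unknown, and the listing is partial, so counts are of listed loci.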
